A study of Mus musculus with 13 samples.

Results

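ESR1 binding after E2 plus fulvestrant was compared with binding after vehicle, using 6 of the 12 deposited ESR1 ChIP-Seq peak lists, the 3 labelled E2 plus fulvestrant and the 3 labelled vehicle. The series held 13 samples in all, the last being an input sample that was not analysed here. ChIP-Seq recovers DNA bound by a protein with an antibody and finds where the recovered fragments pile up; here the antibody was against ESR1, the estrogen receptor α. The cells were primary fibroblasts grown from lower abdominal muscle (LAM) of Aromhum mice, which carry the human aromatase gene and make estradiol (E2) in several tissues. All 6 cultures therefore shared the Aromhum genotype. They also shared a serum-free medium, per the study's methods. Cultures labelled E2 plus fulvestrant received 100 nM fulvestrant ahead of 10 nM E2, and vehicle cultures received the solvents of both, DMSO and ethanol. Every culture was collected 1 hour after E2 or its solvent. Nothing in the labels says whether replicates came from separate mice or cultures, so the p-values below measure the spread between these samples, which may be technical.

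ESR1 is a transcription factor of the nuclear receptor family. With E2 bound, it settles as a dimer on estrogen response elements (EREs), short inverted repeats, or is held at other sites by factors such as AP-1. Fulvestrant competes with E2 for the receptor, blocks its activation and marks it for degradation. The glucocorticoid response element (GRE) is a related inverted repeat read by the glucocorticoid, progesterone, androgen and mineralocorticoid receptors.

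Merging peaks that overlapped by at least 1 bp gave 103496 regions over the 6 lists. All 3 E2 plus fulvestrant libraries and 0 of 3 vehicle libraries had a peak in 1412 regions (1.36% of all regions), called E2 plus fulvestrant regions here. The opposite pattern was found in 122 regions (0.118%), called vehicle regions. A further 13312 regions had a peak in all 6 libraries, called shared regions. Their strength was compared by rank within each list. Peak lists carry no read counts, so a rank is a place in 1 library's own order and falls whenever other regions of that library move ahead. In bulk chromatin, more cells with a site bound and more binding per cell cannot be told apart.

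The 6 libraries were alike in depth. Relative depth, recovered from the fold enrichments and p-values of the peaks, lay between 91.99% and 104.1% of the median library. Repeat-masked peaks made up 5.57% to 7.79% of each list. Lists held 51239, 34293 and 39763 peaks in vehicle replicates 1, 2 and 3, and 40939, 50869 and 66218 with E2 plus fulvestrant. The mean was 41765 ± 8649 with vehicle and 52675 ± 12736 with E2 plus fulvestrant (SD, n = 3), a difference that did not exceed the spread (p = 0.3 in a two-sided exact permutation test). With 3 libraries against 3 this test cannot give a p below 0.1. At promoters, all 8 fibroblast markers examined had a peak in every vehicle library, and 7 or 8 had one in each E2 plus fulvestrant library. None of 7 myogenic and none of 4 endothelial markers had a promoter peak in any of the 6. Of 4 immune markers Cd68 alone had one, in 3 vehicle and 2 E2 plus fulvestrant libraries. A promoter peak is not a measure of expression.

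EREs and GREs of some of these regions are shown, as the elements the results below refer to; most of the regions held neither. Each is given as 61 bases of the mm10 plus strand, centred on the element, in lower case with the element in capitals. The ERE searched was GGTCANNNTGACC with at most 1 mismatch, and the GRE was GNACANNNTGTNC with none, both on either strand within 100 bp of a summit, the highest point of a peak. The first set comes from shared regions that ranked higher with E2 plus fulvestrant, with Greb1 added as a standard estrogen target. Qsox1 (chr1:155844464-155844524), Stat5a (chr11:100870775-100870835) and Greb1 (chr12:16760507-16760567) hold an ERE with no mismatch and lie in introns. Sybu (chr15:44699320-44699380, intronic) and Col6a3 (chr1:90738486-90738546, intergenic) hold an ERE with 1 mismatch. Each is named for the protein-coding gene with the nearest transcription start site (TSS). Promoter, exon and intron classes, here and below, were set from all annotated transcripts. An intron, exon or promoter so named therefore need not belong to the named gene.
Qsox1: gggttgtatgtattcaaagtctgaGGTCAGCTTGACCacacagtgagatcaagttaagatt
Stat5a: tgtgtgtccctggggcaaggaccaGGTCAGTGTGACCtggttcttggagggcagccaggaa
Greb1: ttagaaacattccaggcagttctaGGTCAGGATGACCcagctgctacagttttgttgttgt
Sybu: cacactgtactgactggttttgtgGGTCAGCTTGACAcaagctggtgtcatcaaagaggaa
Col6a3: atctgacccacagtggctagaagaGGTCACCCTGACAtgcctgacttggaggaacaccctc

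The second set comes from E2 plus fulvestrant regions and shows well-ranked EREs and GREs among them. Fam214a (chr9:74970799-74970859, intronic), Rras2 (chr7:114149344-114149404, intergenic) and Tgm2 (chr2:158123103-158123163, intronic) hold an ERE with 1 mismatch. Eif3h (chr15:51730898-51730958, intergenic) and Hook1 (chr4:95793557-95793617, intronic) hold a GRE and no ERE. The Hook1 region lay 173648 bp from the Hook1 TSS.
Fam214a: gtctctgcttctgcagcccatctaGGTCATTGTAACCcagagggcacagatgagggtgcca
Rras2: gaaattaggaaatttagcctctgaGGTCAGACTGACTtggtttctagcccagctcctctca
Tgm2: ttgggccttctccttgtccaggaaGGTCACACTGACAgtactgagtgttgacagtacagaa
Eif3h: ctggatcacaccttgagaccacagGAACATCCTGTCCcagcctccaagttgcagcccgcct
Hook1: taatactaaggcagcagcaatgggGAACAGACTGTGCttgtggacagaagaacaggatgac

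ERE-bearing peaks stood at the top of the E2 plus fulvestrant lists. Among the 500 strongest peaks an ERE lay at 35.4%, 47.2% and 45% of summits in E2 plus fulvestrant replicates 1, 2 and 3, and at 17.2%, 14.8% and 18.4% in vehicle replicates 1, 2 and 3. The groups did not overlap. In ranks 501 to 1000 the shares were 11.2%, 19.8% and 21.6% against 5.8%, 5.6% and 6.2%. By ranks 20001 to 34293 they were 1.54%, 2.09% and 1.88% against 1.37%, 1.01% and 1.18%, so in percentage points the gap was widest at the top. Over those 1000 peaks the mean share was 30.0% ± 5.83 with E2 plus fulvestrant and 11.3% ± 1.06 with vehicle (SD, n = 3). The difference was 18.7 percentage points, with no overlap of the groups and the smallest p the permutation test allows (p = 0.1, adjusted p = 0.14 over 7 measures). The same search 2000 bp upstream found an ERE in 0.5% to 0.7% of these peaks. With no mismatch allowed, the difference was 4.83 points.

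Promoters filled the top of the vehicle lists. Among the 1000 strongest peaks a promoter summit, within 3000 bp of any annotated TSS, was found for 77.9%, 76.6% and 74.1% with vehicle and for 55.2%, 29.0% and 28.9% with E2 plus fulvestrant. E2 plus fulvestrant replicate 1 lay between the vehicle libraries and the other two of its group. The difference was −38.5 percentage points (permutation p = 0.1, again the smallest, adjusted p = 0.14). Over whole lists the promoter share was 42.0% ± 3.45 with vehicle and 37.7% ± 4.69 with E2 plus fulvestrant (SD, n = 3), a gap within the spread (permutation p = 0.3, adjusted p = 0.3). The AP-1 site TGANTCA, bound by Fos and Jun proteins, was also more frequent in the top 1000, at 9.3%, 14.5% and 13.7% with E2 plus fulvestrant and 4.4%, 3.3% and 5% with vehicle (permutation p = 0.1, adjusted p = 0.14). Sequence 2000 bp upstream had it in 5.4% to 6.4%. Summit windows of the top 1000 peaks also differed in base composition, with a GC content of 51.7% ± 3.81 with E2 plus fulvestrant and 59.6% ± 0.653 with vehicle (permutation p = 0.1, adjusted p = 0.14). The part of base composition in the other differences was not tested.

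**Figure D1:**
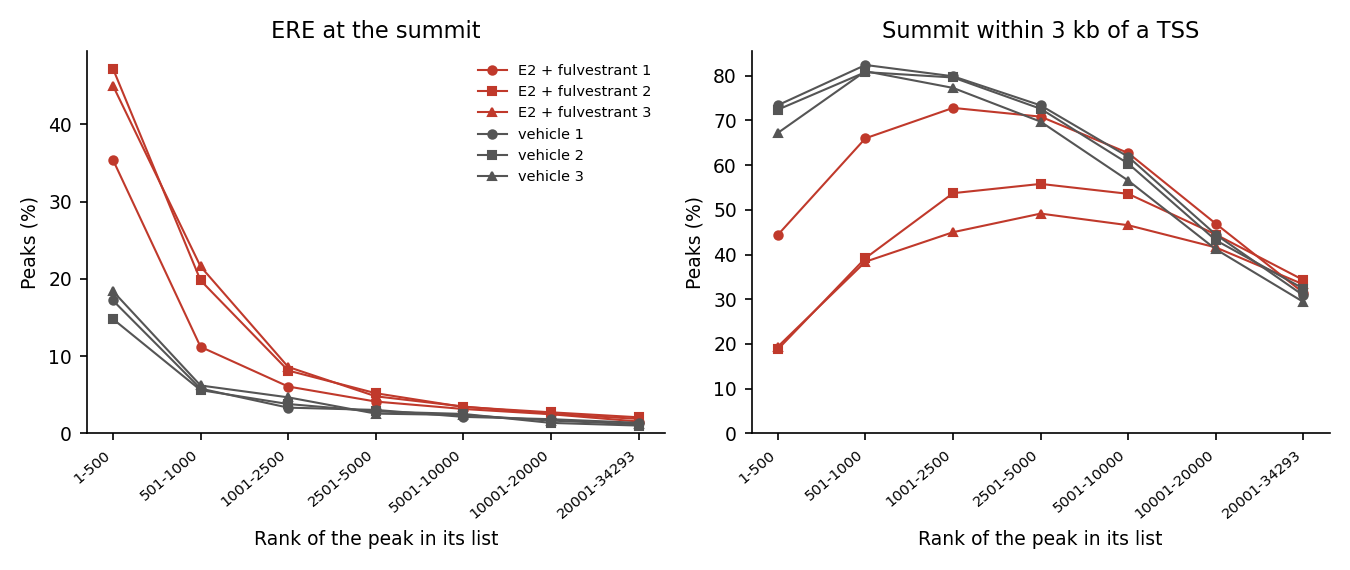
Share of peaks with an ERE within 100 bp of the summit (left, percent) and with the summit within 3000 bp of a TSS (right, percent), by rank bin of the peak in its own list, for 3 E2 plus fulvestrant (red) and 3 vehicle (grey) libraries. In the first 500 ranks the ERE share is 35.4% to 47.2% in the red lines and 14.8% to 18.4% in the grey lines, and the lines approach each other further down the lists.

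The 1412 E2 plus fulvestrant regions mostly lay away from TSSs, many of them in introns. Their median distance to the nearest protein-coding TSS was 50368 bp, against 23380 bp for all regions, 6916 bp for the 122 vehicle regions and 1081 bp for shared regions. In all, 218 (15.4%) were promoter regions, 596 (42.2%) intronic, 573 (40.6%) intergenic and 25 (1.77%) exonic. Of vehicle regions 58 (47.5%) were promoter regions. An ERE was present in 145 E2 plus fulvestrant regions (10.3%, Wilson 95% interval 8.79% to 11.96%) and in 2074 of all regions (2.004%). No vehicle region had one, which for 122 regions has a Wilson upper bound of 3.05%. The intervals cover counting error only. Of the 145 EREs, 29 had no mismatch, and 80 were centred within 25 bp of the summit.

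GREs and AP-1 sites were also more frequent in these regions than in regions as a whole. A GRE was found in 60 (4.25%, Wilson interval 3.32% to 5.43%), against 629 of all regions (0.608%), 59 of shared regions (0.443%) and 1 vehicle region (0.820%). The 60 and the 145 shared 2 members. Both elements were uncommon in these regions, so no conclusion is drawn from the small overlap. AP-1 sites were in 232 E2 plus fulvestrant regions (16.4%), 6 vehicle regions (4.92%) and 9290 of all regions (8.98%). TEAD sites (GGAATGT) followed at 6.02% against 3.98% of all regions. Sites of promoter-binding factors went the other way. SP/KLF sites (GGGGCGGGG) were in 2 E2 plus fulvestrant regions (0.142%), 0 vehicle regions, 0.920% of all regions and 2.38% of shared regions. ETS sites (CCGGAAGT) were in 2 (0.142%), 0, 0.375% and 1.26%. A match of letters is a description and not proof of a site. Lists cut to the length of the shortest, 34293 peaks, gave 1100 and 248 separating regions, with an ERE in 122 (11.1%) and 1 (0.403%) and a GRE in 53 (4.82%) and 1 (0.403%).

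The ERE share rose in steps as regions were found in more E2 plus fulvestrant and fewer vehicle libraries, and the GRE share was highest at the same corner. Among regions with no vehicle peak, an ERE was present in 1.41% of those with 1 E2 plus fulvestrant peak, 4.76% with 2 and 10.3% with 3. Just outside the rule, the 2549 regions with 3 E2 plus fulvestrant peaks and 1 vehicle peak had an ERE in 6.39% and a GRE in 1.45%. The 5172 with 2 and no vehicle peak had a GRE in 1.51%. In the mirror image the ERE share was 0.661% of regions in 1 vehicle library alone, 0.453% in 2 and 0% in 3. These shares describe sets the presence rule formed and carry no test.

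**Figure D2:**
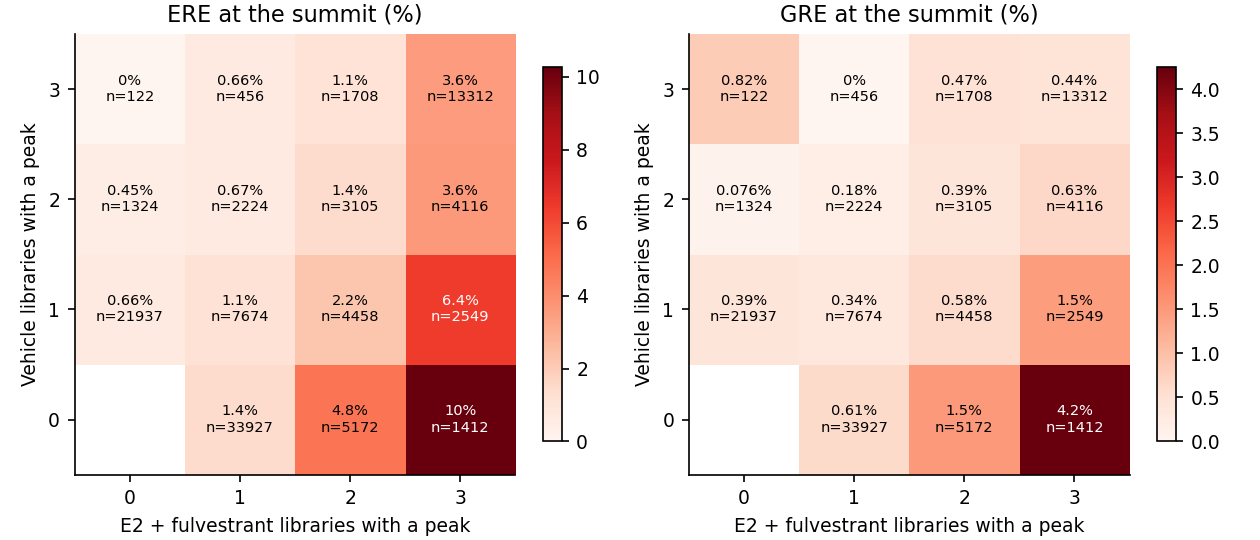
Share of regions with an ERE (left) or a GRE (right) within 100 bp of the summit, in percent, by the number of E2 plus fulvestrant libraries (horizontal) and vehicle libraries (vertical) with a peak in the region; n is the number of regions in each cell. Both shares are highest in the corner with 3 E2 plus fulvestrant and 0 vehicle peaks, at 10.3% and 4.25%.

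Within the E2 plus fulvestrant regions the elements gathered at the better ranks. The mean rank percentile over the 3 lists, where 0 is the strongest peak, was at most 10 for 59 regions, and 13 of these (22.0%) had an ERE and 8 (13.6%) a GRE. From percentile 50 to 100 there were 610 regions, with an ERE in 37 (6.07%) and a GRE in 12 (1.97%). AP-1 sites showed no such gradient, at 16.9% and 15.1% in the same bins. The median region sat at percentile 55.2, 39.2 and 31.3 in replicates 1, 2 and 3, so most were middling peaks. None of the 122 vehicle regions reached the top 10 percentiles.

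The 10 best-ranked E2 plus fulvestrant regions lay near Scaf8, Gm10260, Dym, Gli3, Ptprg, Nt5c2, Eif3h, Diras2, Galnt17 and Fam214a. The Scaf8 region (chr17:3218031-3219300, intronic, 103581 bp from the TSS) ranked 530, 422 and 266 in E2 plus fulvestrant replicates 1, 2 and 3, and no vehicle list had a peak there. The Eif3h region, whose GRE is printed above, ranked 1171, 517 and 945. Gli3 encodes a transcription factor of the hedgehog pathway, and its region (chr13:15420991-15421969, intergenic) ranked 1078, 393 and 688. Fam214a, with the ERE printed above, ranked 1854, 578 and 479. Of the other regions printed above, Rras2, a small GTPase of the Ras family, ranked 2850, 818 and 576. Tgm2, the transglutaminase that cross-links matrix proteins, ranked 3955, 1164 and 1111. Hook1 ranked 2300, 2039 and 1466. Replicate 1 gave the weakest rank at these 7 regions, but replicate 3 did at Nt5c2, Diras2 and Galnt17.

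The best-ranked vehicle regions were weaker peaks, most of them at promoters. The 10 leading ones lay near Aurkaip1, Eif1ax, Stat5b, Prkaa1, Ptms, Mlec, Mrpl23, Dner, Plcl2 and Nemp1, and 8 of the 10 were promoter regions. The Stat5b region (chr11:100850749-100851260, 238 bp from the TSS) ranked 10742, 14710 and 9780 in vehicle replicates 1, 2 and 3. That of Prkaa1, a catalytic subunit of AMP-activated kinase, ranked 20952, 9130 and 8503 (chr15:5143073-5143701, 387 bp from the TSS). Stat5b and Stat5a are neighbouring genes, and the intronic Stat5a region printed above is described next among the shared regions.

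In the shared regions, 95 of 13312 ranked higher with E2 plus fulvestrant (0.714%) and 1 ranked lower (0.00751%; limma on normal scores of the ranks, Benjamini-Hochberg adjusted p under 0.05). At an unadjusted p under 0.05 there were 1215 and 567. A normal score places each rank on a standard normal scale, so 1 unit is 1 SD of a library's normal scores. In E2 plus fulvestrant replicates 1, 2 and 3 the 95 sat at a median percentile of 2.72, 1.28 and 0.845 of the whole list, and in vehicle replicates 1, 2 and 3 at 28.3, 53.2 and 41.9. They were distal, with 36 intronic, 40 intergenic, 6 exonic and 13 promoter regions and a median of 50444 bp to the nearest protein-coding TSS. An ERE lay in 26 of them, 5.47% of the 475 ERE-bearing shared regions, and a GRE in 4, 6.78% of the 59 with a GRE. AP-1 sites lay in 13. All 95 had the same direction without each library in turn, which their selection on these same ranks made likely. The number of shared regions called higher fell to 14, 0 and 32 without vehicle replicates 1, 2 and 3. Without E2 plus fulvestrant replicates 1, 2 and 3 that number was 12, 0 and 12.

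The smallest p belonged to a region nearest to Pik3r1, the regulatory subunit of phosphoinositide 3-kinase (chr13:102113393-102114897, 345937 bp from its TSS and within 3000 bp of another annotated TSS). It ranked 628, 334 and 447 with E2 plus fulvestrant and 12546, 11391 and 12937 with vehicle, a shift of 3.34 ± 0.354 units (SE; limma adjusted p = 0.00916). The Mb21d2 region (chr16:28869766-28871161, intronic) ranked 797, 285 and 360 against 12561, 11781 and 11636. Sybu encodes syntabulin, which links cargo to kinesin motors, and the region with the ERE printed above ranked 440, 290 and 282 against 10728, 11902 and 10204. The ranks of the groups were far apart at these 3 regions, as their selection by p on these same ranks favoured.

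Qsox1, a sulfhydryl oxidase that forms disulfide bonds in secreted proteins, had an ERE with no mismatch 74 bp from the summit. Its region ranked 2037, 679 and 432 with E2 plus fulvestrant and 11812, 13187 and 13050 with vehicle (shift 3.38 ± 0.409 units, SE; limma adjusted p = 0.00916). Col6a3 encodes a chain of collagen VI, and its region ranked 728, 398 and 521 against 10190, 12295 and 12836. Stat5a, a signal transducer of cytokine receptors, had its ERE 71 bp from the summit and ranked 1542, 730 and 601 against 10604, 11400 and 10782 (limma adjusted p = 0.0186). In all 3 regions the weakest E2 plus fulvestrant rank was ahead of the best vehicle rank, as in 1331 of all 13312 shared regions (10%).

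Of the 15 regions with the smallest p, 10 had no ERE. Fkbp5, a co-chaperone of steroid receptors and a standard glucocorticoid target, had a promoter region (chr17:28512113-28513563, 1565 bp from the TSS) that ranked 1785, 934 and 1798 with E2 plus fulvestrant and 12445, 12474 and 11992 with vehicle (shift 2.67 ± 0.329 units, SE; limma adjusted p = 0.00916). The intronic Dbh region (chr2:27175449-27177084) ranked 3532, 1544 and 1203 against 12742, 12948 and 12587. Bmper encodes a secreted regulator of bone morphogenetic proteins, and its intergenic region (chr9:23123632-23124918) ranked 54, 140 and 81 against 10013, 6753 and 10492. The Qk region (chr17:10061905-10063392), nearest to an RNA-binding protein gene, ranked 161, 79 and 83 against 7624, 10410 and 11943. The remaining regions among the 15 with the smallest p lay near Svil, which held an ERE with 1 mismatch, and near Dglucy, Cped1, Selenof and Lgr6, which held none. Lgr6, a receptor for R-spondins, had 2 called regions within a span of 16224 bp.

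One region was called lower, and the call depended on the processing. It was the promoter region of 2510009E07Rik (chr16:21694778-21695346, 259 bp from the TSS), which ranked 12675, 12959 and 12811 with E2 plus fulvestrant and 3923, 5063 and 8364 with vehicle (shift −1.97 ± 0.357 units, SE; limma adjusted p = 0.0436). The limma adjusted p of 2510009E07Rik was 0.141 on log2 ranks, 0.0864 by fold and 0.06 with a replicate block, and lay between 0.0597 and 0.229 without each library in turn. Among the next 14 regions by p, 9 were promoter regions and none passed the test, while 60.0% of all shared regions were promoter regions. Bmpr2, the type II receptor for bone morphogenetic proteins, ranked 7316, 6817 and 6538 against 1960, 543 and 1134 (limma adjusted p = 0.0967). Dnajb1, a heat shock co-chaperone, ranked 12127, 12721 and 10971 against 7282, 3313 and 4333 (limma adjusted p = 0.0793). The groups did not overlap at these 3 promoters, which were named for a small p. All 3 E2 plus fulvestrant ranks were behind all 3 vehicle ranks in 1214 of 13312 shared regions (9.12%).

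**Figure D3:**
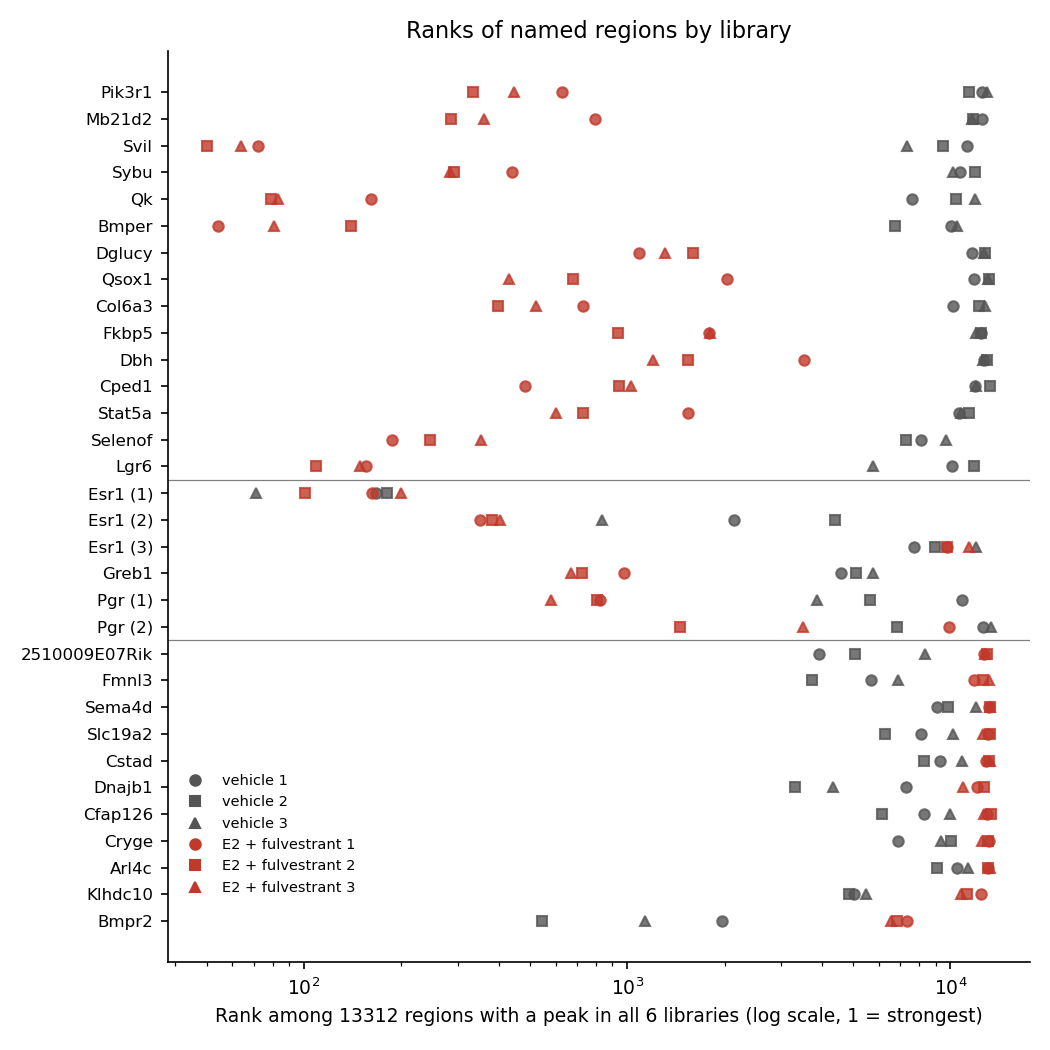
Rank of each named shared region in 3 E2 plus fulvestrant (red) and 3 vehicle (grey) libraries, on a log scale where 1 is the strongest of 13312 regions; top block, the 15 regions with the smallest p ranking higher with E2 plus fulvestrant; middle block, shared regions of Esr1, Greb1 and Pgr; bottom block, the first 11 ranking lower. Red and grey points do not overlap in any region of the top or bottom block, whose regions were chosen by p on these ranks. In the middle block the points overlap at 2 of the 3 Esr1 regions and at the second Pgr region.

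Rank shifts differed by element and position across all shared regions. The 475 ERE-bearing regions had a median shift of 0.829 units, and 415 of them (87.4%) had a positive shift, against a median of −0.099 and 42.7% for all 13312. Their median rank was 1257, 546 and 556 with E2 plus fulvestrant and 4201, 4545 and 3864 with vehicle. All 3 E2 plus fulvestrant ranks were ahead of all 3 vehicle ranks in 256 ERE-bearing regions (1331 of all shared regions, 10% of them), and behind them in 9 (1214 of all, 9.12%). Distal EREs shifted more than promoter EREs, with medians of 0.924 over 364 regions and 0.423 over 111. AP-1 regions had a median of 0.388 (872 regions), TEAD regions 0.252 (480) and RUNX regions 0.333 (203, TGTGGTTT). The 59 GRE regions were spread widely, with a median of 0.109 and an upper quartile of 1.12.

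Promoter regions without an ERE formed the other side of this scale. The 7876 of them had a median shift of −0.240 units and 29.1% had a positive shift. Since ranks within a list sum to a constant, part of any such decline can be the rise of other regions, and peak lists cannot tell these apart. Distal regions without an ERE, AP-1 regions among them, had a median of 0.178 over 4961 regions.

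**Figure D4:**
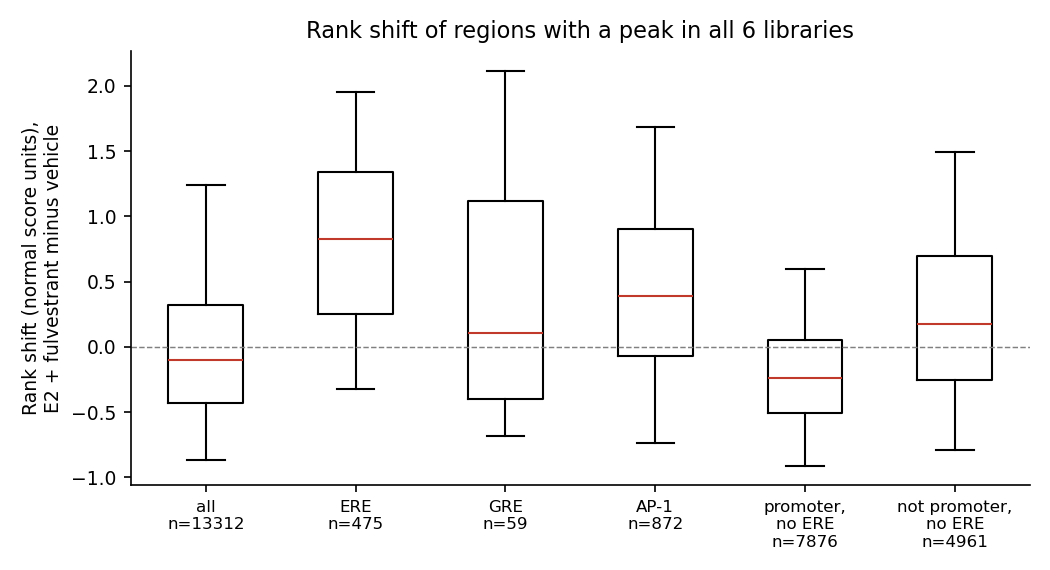
Rank shift in normal score units, E2 plus fulvestrant minus vehicle, of shared regions by class; boxes span the quartiles, red lines are medians and whiskers reach from the 5th to the 95th percentile, with the number of regions under each box. The ERE box has a median of 0.829, and the promoter box without an ERE has a median of −0.240.

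The shared regions examined at the standard estrogen targets Greb1, Pgr and Esr1 did not pass the test. The Greb1 region with the ERE printed above ranked 979, 725 and 669 with E2 plus fulvestrant and 4574, 5088 and 5759 with vehicle (shift 1.27 ± 0.321 units, SE; limma adjusted p = 0.111). A Greb1 region 7675 bp from the TSS (chr12:16764625-16765237) had a peak in 3 E2 plus fulvestrant lists, at ranks 864, 562 and 1389 of the whole list, and in vehicle replicates 2 and 3, at 19869 and 11247. Pgr, the progesterone receptor gene, was nearest to a shared region 147396 bp from its TSS (chr9:8752094-8752794, intergenic). That region ranked 822, 808 and 580 against 10844, 5657 and 3859 (shift 1.65 ± 0.416 units, SE, limma adjusted p = 0.11). The ranks of the groups did not overlap at this Pgr region or at the shared Greb1 region. Esr1, the receptor's own gene, had its strongest region (chr10:4590562-4591735, intergenic) at ranks 162, 101 and 199 against 167, 180 and 71, and here the groups overlapped (shift −0.05 units; limma adjusted p = 0.967). The Esr1 promoter region gave −0.12 units (limma adjusted p = 0.928). The remaining shared Esr1 region, in an intron (chr10, start 4617441), ranked 350, 382 and 403 against 2137, 4394 and 834 without overlap (shift 0.92 units; limma adjusted p = 0.317). The second Pgr region (chr9:8739937-8741099) lay 159363 bp from the Pgr TSS and within 3000 bp of another annotated TSS. It ranked 9919, 1456 and 3495 against 12623, 6841 and 13310 with overlap (shift 2.14 units, limma adjusted p = 0.262).

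Lists of genes, chosen with earlier results of these data known, were then counted by nearest region. An E2 plus fulvestrant region was nearest to 1155 of 21924 protein-coding genes (5.27%), a vehicle region to 119 (0.543%) and a region called higher to 93 (0.424%). A gene far from its neighbours can be nearest to many regions, so these shares are a description. Among 26 estrogen targets, 4 had an E2 plus fulvestrant region (Pgr, Myc, Cxcl12 and Nrip1, named after their values were seen) and none had a called region. Myc also had a vehicle region, as the only 1 of the 26 (3.85%). The median shift of the 35 shared regions of these targets was 0.175 units. Among 14 glucocorticoid targets 6 had one (42.9%), and the median shift of 28 shared regions was 0.564 units, with 21 (75%) positive.

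Fkbp5 alone had 5 of the E2 plus fulvestrant regions, besides its called promoter region. The best-placed of them by mean rank (chr17:28484951-28485755) ranked 16670, 16428 and 14905 of the whole list, and none of the 5 had an ERE or a GRE. The other glucocorticoid targets with such a region were Zbtb16, Klf9, Sgk1, Errfi1 and Nfkbia, named here after their values were seen. Zbtb16, a transcriptional repressor, had 3 intronic regions. The one with a GRE (chr9:48736755-48737896) ranked 6422, 19356 and 12888. Klf9 had a GRE-bearing region at 20091, 4545 and 6426, and Sgk1, a serum- and glucocorticoid-regulated kinase, one at 34828, 7382 and 10817.

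Other lists were read against the shares of all genes given above, 5.27% with an E2 plus fulvestrant region and 0.424% with a called one. Listed genes were richer in peaks. A shared region was nearest to 7773 of all 21924 genes, but to 23 of 25 fibroblast and matrix genes and 13 of 16 coregulators. It was also nearest to 11 of the 14 glucocorticoid targets. Shares above those of all genes are therefore a description and no enrichment. Of 25 fibroblast and matrix genes, 4 (16%) had an E2 plus fulvestrant region, Dcn had 2 vehicle regions, and Col6a3 and Dcn (8%) had a called region. The called Dcn region, nearest to the gene for the proteoglycan decorin, ranked 130, 218 and 238 with E2 plus fulvestrant and 12965, 7766 and 7301 with vehicle (limma adjusted p = 0.0314). It was 1 of 16 shared regions of Dcn, whose median shift was 0.072 units. Of 21 TGF-β pathway genes 3 (14.3%) had an E2 plus fulvestrant region. Tgfbr3, the co-receptor betaglycan, had a called region at ranks 940, 615 and 312 against 9055, 13061 and 12899 (limma adjusted p = 0.0215). It was 1 of 17 shared regions of Tgfbr3, whose median shift was 0.079 units. Shared regions of the TGF-β list had a median shift of −0.067 units and 44.2% were positive, against 42.7% of all shared regions. For the fibroblast and matrix list these values were 0.010 units and 51.9%. Of 16 ESR1 coregulators 6 (37.5%) had an E2 plus fulvestrant region and none a called one. Of 8 AP-1 subunits 1 had an E2 plus fulvestrant region and 1, Fosl1, had a vehicle region. Of 21 cell cycle genes 4 had an E2 plus fulvestrant region and 1, Myc, also had a vehicle region. Cdc7, the kinase that starts DNA replication, had 2 called regions among its 10 shared ones. Of 4 endothelial markers, Kdr had a called intergenic region 157750 bp away, without a promoter peak at the gene in any library.

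The study itself listed 34 genes as higher with E2 plus fulvestrant than with E2, in its ChIP-Seq, RNA and open chromatin data together. Vehicle was not in that contrast, so the list does not answer the comparison made here. The same E2 plus fulvestrant samples entered both, so the count of these genes is not independent evidence. Of the 34, 16 (47.1%) had an E2 plus fulvestrant region, and Ampd3, Mb21d2, Cdc7 and Fkbp5 had a called region. Ampd3, an AMP deaminase, ranked 1964, 3831 and 1694 with E2 plus fulvestrant and 12797, 12779 and 11190 with vehicle in an intronic region (limma adjusted p = 0.023). Of 15 genes listed for E2 over E2 plus fulvestrant, only a part of that longer list, 3 had an E2 plus fulvestrant region. Piezo2, a mechanically gated channel, had 1 called region among its 8 shared ones.

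E2 plus fulvestrant regions were also looked up in the libraries outside the comparison, which the rule had not used. Of the 1412, 79.5% and 81.1% had a peak in E2 replicates 2 and 3, where 45.6% and 53.5% of all regions had one. In fulvestrant replicates 1 and 3 they had a peak in 39.3% and 39.1%, where all regions had one in 30.3% and 32.05%. The 6682 regions with a peak in 3 of the 6 lists in any other mix are a closer comparison. They had a peak in 72.9% and 83.4% of cases in E2 replicates 2 and 3 and in 39.7% and 42.95% in fulvestrant replicates 1 and 3. Of the 1412, E2 replicate 1 had a peak in 10.3% and fulvestrant replicate 2 in 20.8%. These 2 libraries stood apart with a relative depth of 39.1% and 75.8% and repeat-masked shares of 59.4% and 27.9%.

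Most ERE-bearing and most GRE-bearing regions had a peak in the same E2 libraries, and their shares differed in the fulvestrant libraries. Of the 145 with an ERE, 89.0% and 88.3% were present in E2 replicates 2 and 3 and 20% and 26.9% in fulvestrant replicates 1 and 3. Of the 60 with a GRE, 65.0% and 71.7% were present in E2 replicates 2 and 3 and 61.7% in each of fulvestrant replicates 1 and 3. In those fulvestrant libraries EREs were thus below and GREs above the share of all E2 plus fulvestrant regions. The 122 vehicle regions had a peak in 65.6% and 77.0% of cases in E2 replicates 2 and 3 and in 33.6% and 42.6% in fulvestrant replicates 1 and 3. The 95 called regions all had a peak in E2 replicates 2 and 3, at a median percentile of 1.43 and 2.87. In fulvestrant replicates 1 and 3, 98.9% and 93.7% of them had one, at 20.3 and 14.6. Of all 13312 shared regions, 99.7% and 99.9% had a peak in E2 replicates 2 and 3, at a median percentile of 14.0 and 10.5. In fulvestrant replicates 1 and 3, 97.3% and 96.6% of these had one, at 17.5 and 16.5. Presence of the 95 was thus near that of shared regions as a whole. The called Fkbp5 region stood far from the E2 medians of the 95. It lay at percentile 50.9 and 49.7 in E2 replicates 2 and 3, and at 11.2 and 12.8 in fulvestrant replicates 1 and 3. All these values are descriptions of single libraries with lists of unequal length.

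**Figure D5:**
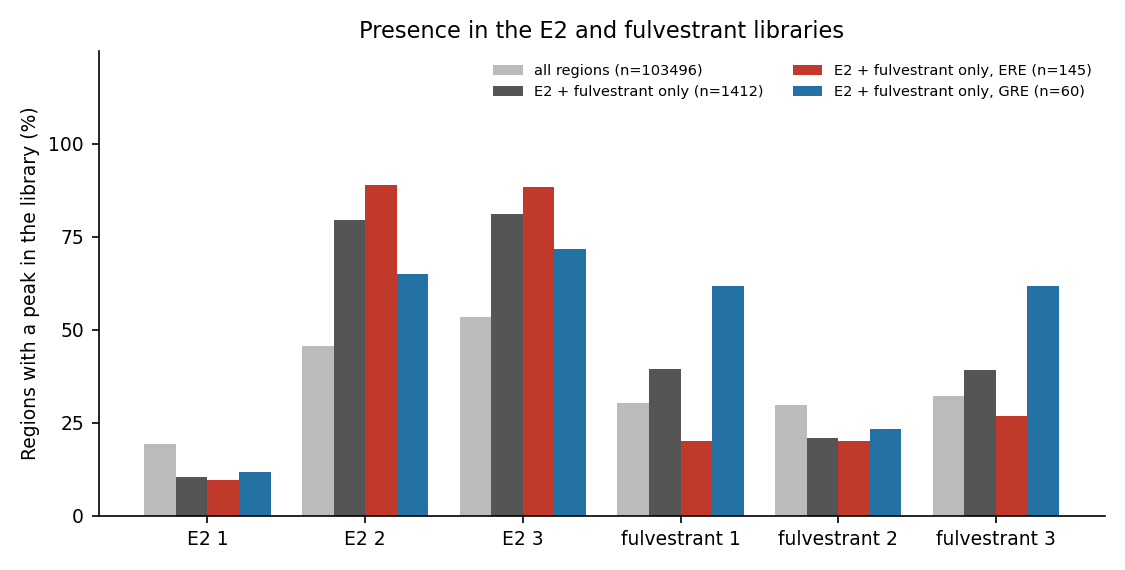
Percent of regions with a peak in each E2 and fulvestrant library, for all 103496 regions (light grey), the 1412 E2 plus fulvestrant regions (dark grey) and those of them with an ERE (red, 145) or a GRE (blue, 60). In fulvestrant replicates 1 and 3 the blue bars stand at 61.7% and the red bars at 20% and 26.9%.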

How the data were processed

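ESR1 ChIP-Seq peak lists of 3 E2 plus fulvestrant and 3 vehicle libraries were compared. According to the methods of the study, single-end reads were trimmed (Trimmomatic 0.39), aligned to mm10 (Bowtie2), freed of duplicates (Picard 2.21.4) and passed to MACS2 for peak calling. The deposited lists held a start, an end and a summit per peak, a fold enrichment (a ratio over local background), and p- and q-values as −log10, all computed by the authors for that library alone. The authors' score column, −log10 p rescaled, was not used. Whether lists were taken before or after the authors' blacklist filter was not stated. The study's count model and batch adjustment need read counts and could not be run, and no batch was given in the labels.

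Peaks overlapping by at least 1 bp over the 6 lists were merged. A region took its summit from its best-placed peak, and its rank in a library from the −log10 q, with ties broken by p and fold. Shared regions were ranked again among themselves, turned into normal scores and compared with limma (3.58.1, R 4.3.3), with Benjamini-Hochberg adjustment over all 13312, after a test on simulated data. Values per library were compared with two-sided exact permutation tests over 20 arrangements. Summits were annotated with the GENCODE vM21 basic set, and sequence was read from RefSeq GRCm38.p6, the assembly of mm10. AP-1, TEAD, RUNX, NF1, ETS, E-box, CTCF, CRE, SP/KLF and GRE motifs were searched without mismatches on both strands. Relative depth came from the background fragments that fold and p fix under the caller's Poisson model. For at least 99.74% of the tested peaks, a whole fragment number gave the listed −log10 p to within 0.01. Shares carry Wilson 95% intervals, which cover counting error only.

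The regions, gene lists and motifs were chosen with earlier results of these data known. Named regions were the 10 best-ranked E2 plus fulvestrant and vehicle regions, the 15 shared regions with the smallest p in each direction, up to 4 members of each list and direction with one of these or a called region, and Greb1, Pgr and Esr1. Alternatives covered the ranking, filters, merging, TSS distances, list length, a replicate block and leaving out each replicate. Some items are not reported here.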

Additional observations from a re-analysis of the deposited data

How the results depend on the processing

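The excess of E2 plus fulvestrant over vehicle regions kept its direction in all alternatives run, while both counts moved. A −log10 q of at least 10 gave 674 and 8 regions, a rule of at least 2 of 3 libraries against 0 gave 6584 and 1446, lists of equal length gave 248 vehicle regions, a q of at most 0.05 gave 75 and merging 200 bp around summits gave 477. Leaving out 1 replicate gave between 1699 and 5105 E2 plus fulvestrant regions and between 193 and 721 vehicle regions, the rule then asking for fewer libraries.

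Shared regions called higher and lower numbered 405 and 73 on log2 ranks, 33 and 0 when ranked by fold, 545 and 44 over regions in at least 3 of 6 libraries, and 57 and 0 with a replicate block. Samples with the same number had correlations of 0.073, −0.025 and 0.152 between their deviations and were not treated as pairs; whether a number marks a batch is not known. Merging around summits and a q of at most 0.05 each gave 2 called lower. Without 1 replicate, 0 to 32 were called higher and 0 lower (limma). At an unadjusted p under 0.05 there were still 1000 higher and 421 lower without vehicle replicate 2, and 834 and 396 without E2 plus fulvestrant replicate 2. All 95 kept their direction wherever they could be tested, which their selection on these ranks made likely. Of the 95, 86 were called on log2 ranks, 54 with the block and 33 by fold. Over the 30 shared regions named by p, 306 alternative values kept their direction and side of the threshold, 53 lost the call and 3 gained it. The causes were not tested beyond the smaller number of samples.

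Of 39 listed genes with an E2 plus fulvestrant region, 20 had one with the nearest TSS within 50000 bp and 15 with the nearest TSS of any gene. The equal-length ERE and GRE shares were chosen after seeing the data. The ERE, promoter and peak number differences per library kept their direction and stayed above p = 0.05 in every permutation test run, which 3 libraries against 3 cannot pass.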

Other observations

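Matrix genes outside the counted lists were also nearest to regions called higher with E2 plus fulvestrant. They are named here after their values were seen. Adamts2, the procollagen N-proteinase, had an intronic region with an ERE (chr11:50695133-50696975) at ranks 77, 160 and 129 with E2 plus fulvestrant and 2533, 3954 and 3517 with vehicle (limma adjusted p = 0.0464). Fbln2, a fibulin of elastic fibres, had an intergenic ERE region at 1526, 243 and 748 against 6183, 12029 and 10424. Vcan, the proteoglycan versican, was nearest to a region 86255 bp from its TSS, with an AP-1 site and no ERE. That region lay in an exon of an annotated transcript and ranked 4663, 1883 and 2220 against 13113, 11266 and 11453. The ranks of the groups did not overlap at any of these 3, which were called on these same ranks. Plod2, a lysyl hydroxylase of collagen, and Mmp19, a matrix metalloproteinase, also had called regions, both without an ERE.

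Some called regions and some E2 plus fulvestrant regions lay close together. Of the 95 called regions, 3 near Cdc7 and Tgfbr3 fell within 239541 bp of chromosome 5, and 2 near Ebag9 and Sybu within 33353 bp of chromosome 15. Trps1, a GATA-type repressor, was nearest to 6 E2 plus fulvestrant regions, 2 of them with an ERE, and Thbs1, the matrix glycoprotein thrombospondin 1, Prdm1, a transcriptional repressor, and Pappa, a protease of insulin-like growth factor binding proteins, to 4 each. A gene with few neighbours can be nearest to many regions, and these counts carry no test.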
